A study of Caenorhabditis elegans with 12 samples.

Results

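WAGO-4 is an Argonaute protein of the Caenorhabditis elegans germ line. It was recovered here from wild-type worms (WT), and the small RNAs (sRNAs) bound to it were compared with those of the lysate it came from. The comparison holds 6 of the 12 samples of the series: 3 WAGO-4 immunoprecipitates (IPs) and 3 inputs, each IP set against the input of the same number. All 4850 features of the deposited WT table were taken as members, out of 63014 features counted in the inputs. A feature is a gene, or a repeat family, on either its sense or its antisense strand.

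The WT worms were strain YY1325, which carries the allele gg620 of wago-4, an insertion of a 3xflag::gfp tag at the native locus on chromosome II. They were grown at 20 °C and collected whole as young adults, without sorting of tissues or cells. WAGO-4 was pulled down through its GFP tag, so every IP measures the tagged protein, and no IP from worms without the tag was analysed here. The other 6 samples came from strain SS142 (3×FG), with the same wago-4 tag, stage and temperature but with changed FG repeats in the germ granule helicases (glh-1F>A, glh-4F>A and glh-2 delFG), and are used below only where the same features were measured in separate libraries. Antisense reads of the GFP sequence numbered 3, 6 and 44 in the WT inputs, and GFP was not in the table. In whole worms, fewer germ cells and less sRNA per germ cell cannot be told apart.

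Argonaute proteins carry a short RNA that pairs with a complementary transcript. In C. elegans, RNA-dependent RNA polymerases copy target mRNAs into secondary siRNAs of mostly 22 nucleotides that start with a guanosine, the 22G-RNAs, and these read antisense to the gene they target. WAGO-4 is known to carry 22G-RNAs against many germline-expressed protein-coding genes, to share targets with the Argonaute CSR-1, to sit in germ granules, and to be needed for the inheritance of silencing by exogenous RNAi.

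The table holds 22G-RNA levels as RPM, reads scaled to a common total of 1000000 per library, and was limited by its authors to features that reached 5 RPM in every IP and exceeded their input 2-fold or more in all 3 pairs. The lowest IP level in the table was 5.01 RPM and the lowest ratio was 2.00. The members just inside the minimum had a lowest ratio of 2.00 (set-29 and bath-36) or 2.01 (F28D9.4, PALTTTAAA1 and miro-1), and the IP values of features just outside it were not analysed here. That IP exceeded input was therefore set by the table. A limma fit of log2(RPM + 1) with the pair as a block called 4849 of the 4850 features higher in IP, 100% after rounding, and nothing is read from that count. What the values can show is which features had more or less WAGO-4-bound 22G-RNA than others, in the IP itself (abundance) and relative to input (loading).

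The inputs held 2208475, 5200665 and 20006273 counted reads of all lengths, given below as CPM (counts scaled to the same total) where a gene is not in the table, so a low input value in pair 1 rests on few reads. The listed features took between 65.7% and 72.5% of the reads of the 3 IPs and between 7.79% and 9.08% of the inputs. The IPs resembled each other more than the inputs did: across the 4850 features, the correlation of log2(RPM + 1) was 0.996 between IPs 1 and 2, 0.975 and 0.981 with IP 3, and 0.937 to 0.969 among inputs. These correlations describe features within libraries and have no p. The IP level differed by more than 2-fold between the highest and lowest IP in 97 features (2% of 4850), and IP 3 was the highest in 40 and the lowest in 53 of them.

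Inputs 1 and 2 were taken as batch A, and input 3 and all 3 IPs as batch B, a grouping that the sample titles do not name. Under it only pair 3 lies within 1 batch. Input 3 also stood apart in makeup: rRNA took 20.1% of its reads against 3.18% and 4.95% in inputs 1 and 2, and sense reads of the 6 yolk protein genes took 0.391% against 0.00466% and 0.00858%. The median IP/input ratio of all features was 10.2 in pair 1, 8.57 in pair 2 and 7.33 in pair 3. Its mean was 8.69 ± 1.42 (SD, n = 3 pairs). The part of batch, depth and input makeup in these pair differences was not tested, and each test of loading below subtracts the median of its own pair.

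WAGO-4 in WT mainly held 22G-RNAs antisense to protein-coding genes. Of the 4850 features, 4720 were antisense to protein-coding genes, 55 to pseudogenes, 25 to simple repeats, and 6 to transposons and other repeat families. Another 26 were noncoding RNA genes and 5 protein-coding genes read in sense, and 13 belonged to other RNA classes. Relative to the features counted in the inputs, 24.0% of 19691 protein-coding genes were listed in antisense, against 3.31% of 1664 pseudogenes, 1.81% of 1384 simple repeats and 3.35% of 179 other repeat families.

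Within the listed RPM, the share of reads antisense to protein-coding genes differed little among libraries of a kind. It was 97.4%, 97.4% and 97.4% in IPs 1 to 3 and 93.7%, 94.0% and 94.5% in the inputs, so the groups did not overlap (difference 3.32 percentage points). The share of transposons and other repeats was 4.09% ± 0.202 in the inputs and 1.24% ± 0.0348 in the IPs (SD, n = 3 each), and that of pseudogenes was 1.46% ± 0.137 and 0.962% ± 0.00979. Simple repeats held 0.172% ± 0.0134 of the IPs and 0.106% ± 0.0111 of the inputs. Each of these 4 shares reached p = 0.1 in the exact two-sided permutation test, the smallest p that 3 against 3 allows, so none can pass 0.05. Without the 10 features of highest IP level the protein-coding difference was 1.28 percentage points and that of transposons and other repeats was -0.76. These 10 include 1 repeat family, described next.

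The signal was spread over many genes. The single most abundant feature held 0.837% of the listed IP RPM, the top 10 held 4.15% and the top 100 held 18.04%, and it took 691 features to reach 50%. The median feature had 84.5 RPM in the IPs. Levels above 1000 RPM were reached by 46 features, and 576 lay under 20 RPM.

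**Figure D1:**
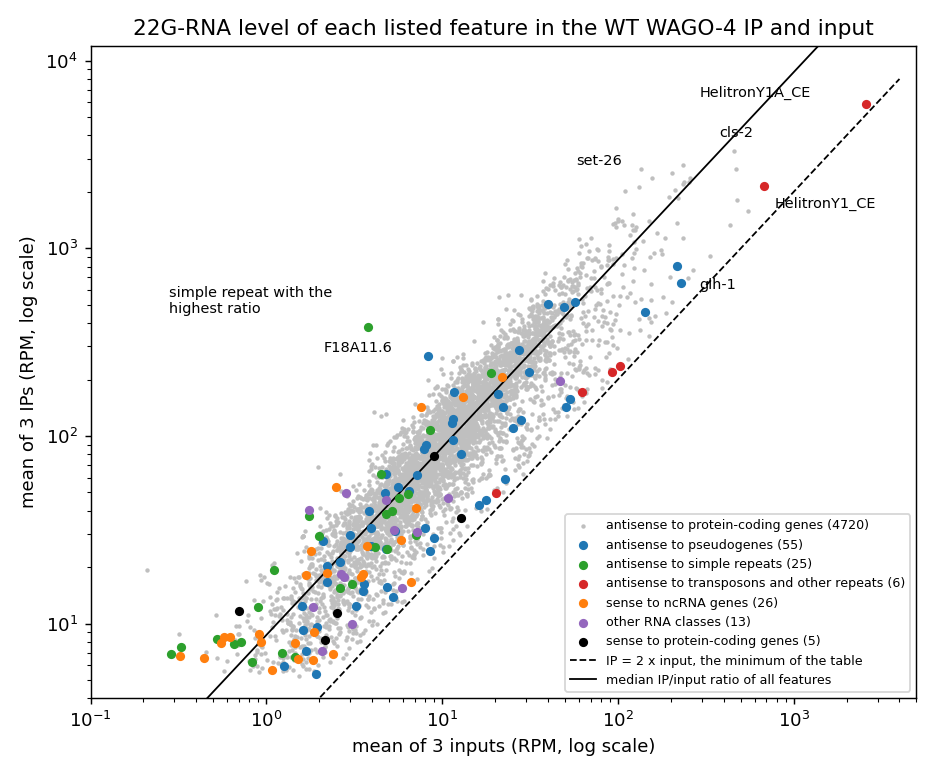
Mean 22G-RNA level of each of the 4850 listed features in the 3 WT inputs (x axis, RPM, log scale) and the 3 WT WAGO-4 IPs (y axis, RPM, log scale), coloured by feature class with the number of features in brackets. The dashed line is the 2-fold minimum of the table and the solid line the median ratio of 8.69; the 6 transposon and other repeat families (red) lie along the dashed line, and HelitronY1A_CE has the highest level on both axes.

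The most abundant WAGO-4-bound 22G-RNAs were antisense to a Helitron, a rolling-circle DNA transposon. HelitronY1A_CE had 5995, 6164 and 5419 RPM in the IPs and 2355, 2697 and 2674 RPM in the inputs. All 3 IPs lay above all 3 inputs, yet its ratio of 2.29 ± 0.259 (SD, n = 3 pairs) was close to the minimum of the table. It was thus the most abundant listed 22G-RNA family already in the lysate. The files give this family no position in the genome.

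The other 9 of the 10 most abundant features were protein-coding genes, with cell division genes among them. The gene cls-2, a CLASP protein that acts on microtubules of the spindle (III, 9055048 to 9058895, build WBcel235), had 3742, 3475 and 2672 RPM in the IPs and 423, 458 and 492 RPM in the inputs. The kinesin gene klp-18, needed for the spindle of oocyte meiosis (IV, 7040211 to 7043694), had 2782, 2723 and 2797 RPM in the IPs and 196, 221 and 283 RPM in the inputs. Topoisomerase II, top-2, had 2735, 2422 and 1962 RPM in the IPs against 214, 267 and 292 RPM in the inputs. For each of these genes every IP exceeded every input by more than 4-fold, and IP 3 was the lowest IP for cls-2 and top-2.

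Genes of splicing, the piRNA pathway and chromatin were also in this top group. The spliceosomal helicase gene snrp-200 had a mean of 2663 ± 77.0 RPM (SD, n = 3 IPs) and the piRNA-binding Argonaute gene prg-1 had 2247 ± 270 RPM. The gene set-26, for a SET and PHD domain chromatin protein (IV, 16646791 to 16655883), had 2792, 2604 and 2557 RPM in the IPs and 107, 133 and 169 RPM in the inputs. The remaining 3 were T12E12.3 (2525 RPM), the formin gene inft-2 (2386 RPM) and the class V myosin gene hum-2 (2259 RPM). Their loading differed: set-26 had a ratio of 20.3 ± 5.53, while snrp-200 had 5.76 ± 0.821 (SD, n = 3 pairs).

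Levels of different genes can be compared only per length, since a longer transcript offers more template. Per kilobase (kb) of exon, the order of abundance changed towards short genes. Y48G1C.9 on chromosome I (91404 to 92720, build WBcel235) had 1791, 1870 and 2384 RPM in the IPs over 389 exon bases, or 5180 RPM per kb, against a median of 52.4 RPM per kb over all listed features with an exon length. Among protein-coding genes Y111B2A.2 followed with 2656 RPM per kb, then the ribosomal protein gene rpl-34 with 1772, the prefoldin gene pfd-1 with 1654 and the ribosomal protein gene rpl-23 with 1384 RPM per kb. Of the 10 protein-coding genes highest per kb, htp-1 (1146 RPM per kb) encodes a meiotic chromosome axis protein, scc-1 (1001) a cohesin subunit, klp-16 (1051) a kinesin, and ran-4 (1381) a carrier for the nuclear import of Ran. T07A9.14 had 1022 RPM per kb. Short features of other classes reached similar levels, namely the pseudogenes Y57G11C.57 (2967 RPM per kb) and ZK380.t2 (1965) and the noncoding RNA gene T06D8.12 (1479).

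**Figure D2:**
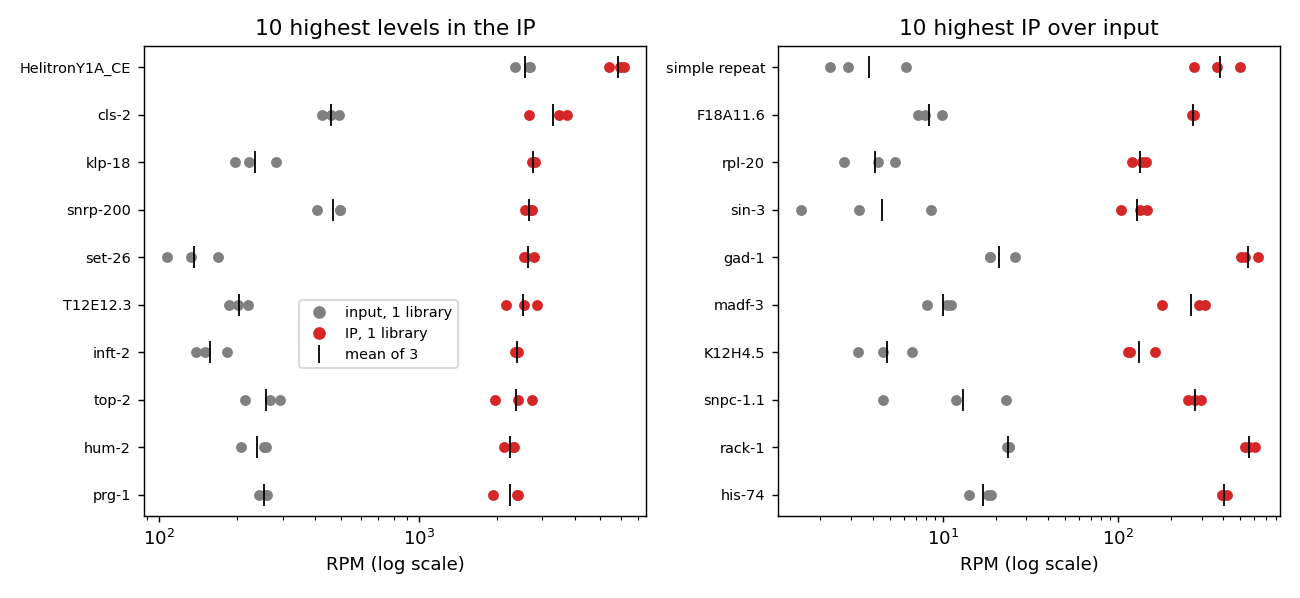
Level of the 10 features with the highest IP level (left) and the 10 with the highest IP over input (right, where the simple repeat is (AGCTCC)n) in each of the 3 WT inputs (grey) and 3 WT WAGO-4 IPs (red), in RPM on a log scale; black bars are means of 3 libraries. The IPs lie above the inputs for each of these features, as the table requires, and HelitronY1A_CE shows the smallest gap.

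Loading was compared between features on the log2((IP + 1)/(input + 1)) scale, after subtracting the median of each pair. A limma fit over all 4850 features called 105 of them, 2.16%, above the median feature and 484, 9.98%, below it, at an adjusted p under 0.05 and a difference beyond 1 on the log2 scale. Most features were thus called on neither side, which does not show that their loading was alike. A ratio of at least 4 in every pair was met by 4113 features (84.8%), of at least 8 by 1623 (33.5%), of at least 16 by 36, and of at least 32 by 2. The low side is bounded by the table, where features under a ratio of 2 were not listed. The counts depend on the pseudocount: with 5 RPM added in place of 1, 209 features lay above and 582 below.

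The 105 features loaded above the median had higher levels than the 484 below. The median of their IP levels was 234 RPM against 21.3 RPM, with a median ratio of 18.3 ± 2.24 against 3.34 ± 0.158 (SD, n = 3 pairs). Part of this level difference is built in, since the 1 RPM added lowers the log2 ratio of scarce features most. The median ratio of listed genes with 1 to 2 antisense input CPM was 8.36 ± 1.63 (SD, n = 3 pairs). Over all features it was 8.69 ± 1.42. Yet 24.9% of the genes with 1 to 2 CPM were called below and 0 above, at a median difference of -0.63. Of the 105, 101 were antisense to protein-coding genes. The other 4 were a simple repeat, the pseudogene F18A11.6, and the noncoding RNA genes T05G5.17 and F55A11.13.

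The feature with the strongest loading was a simple repeat with the 6-base unit AGCTCC, named (AGCTCC)n in the table. It had 368, 499 and 273 RPM in the IPs and 2.27, 2.89 and 6.16 RPM in the inputs. Its ratio was 162, 172 and 44.3 in pairs 1 to 3, and it lay 3.42 ± 0.26 (SE) above the median feature on the log2 scale (adjusted p = 0.000104, limma). Pair 3, with the most deeply sequenced input, gave the lowest value. The other feature with a ratio of at least 32 in every pair was noa-1, whose inputs were all below 1 RPM (0.463, 0.106 and 0.0600) and whose IPs had 21.9, 20.4 and 15.8 RPM.

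Among the protein-coding genes with the strongest loading were 2 of the ribosome. The ribosomal protein gene rpl-20 had 120, 137.6 and 145 RPM in the IPs and 2.73, 4.24 and 5.31 RPM in the inputs, 1.83 ± 0.15 above the median (adjusted p = 0.000119). The gene rack-1, for a scaffold protein of the small ribosomal subunit, had 528, 556 and 604 RPM in the IPs and 23.1, 23.9 and 23.9 RPM in the inputs, 1.58 ± 0.13 above it (adjusted p = 0.000146). Their ratios, 34.6 ± 8.48 and 23.8 ± 1.32 (SD, n = 3 pairs), show that the pairs scattered more for rpl-20 than for rack-1.

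The gene sin-3, for a subunit of histone deacetylase complexes, lay 1.82 ± 0.27 above the median with ratios of 39.9, 16.99 and 67.3, and snpc-1.1, for a subunit of the snRNA activating complex, lay 1.59 ± 0.28 above it with ratios of 60.3, 25.0 and 11.03. Both had inputs that differed by more than 4-fold between libraries. With input 3 used for all 3 IPs, snpc-1.1 was at 0.70 and no longer called. The others of the 10 highest were the pseudogene F18A11.6 (II, 13043951 to 13045975, with 269, 264 and 270 RPM in the IPs and a ratio of 32.6 ± 4.74), gad-1 (553 ± 65.5 RPM, ratio 26.5 ± 2.10), his-74, an H3.3 histone gene (403 ± 15.1 RPM, ratio 24.2 ± 4.99), madf-3 (ratio 27.2 ± 11.3) and K12H4.5 (ratio 28.5 ± 6.17).

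Of the 50 most abundant features, 8 (16%) were called above the median, beside 2.16% of all features, namely set-26, scc-1, Y48G1C.9, pezo-1, fbf-2, ekl-7, pam-1 and pgl-1. The first 3 of these had mean IP levels of 2651, 2137 and 2015 RPM. The IP level is the numerator of the ratio, so a higher share called above is partly built into a group picked by it. Of the 85 listed genes with at least 100 antisense CPM in the inputs, 4.71% were called above and 27.1% below. With input 3 used for all 3 IPs, Y48G1C.9 was at 0.92 and no longer called.

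At the other end, some abundant 22G-RNAs were loaded weakly. Among the features above the 90th percentile of IP level (305 RPM), the 5 with the lowest loading were miro-1, HelitronY1A_CE, lin-40, vbh-1 and K01G5.5. The gene miro-1 had 374, 371 and 283 RPM in the IPs and 143, 167 and 141 RPM in the inputs, a ratio of 2.28 ± 0.302. The gene lin-40, for a subunit of a nucleosome remodelling complex, had a ratio of 2.42 ± 0.132, and vbh-1, for a DEAD-box RNA helicase related to GLH-1, had 2.59 ± 0.472. All 5 lay between -1.56 and -1.76 from the median on the log2 scale, each with an adjusted p of 9.22e-05 or less (limma).

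The germ granule helicase gene glh-1 was of the same kind. It had 771, 693 and 617 RPM in the IPs and 270, 248 and 234.7 RPM in the inputs, a ratio of 2.76 ± 0.115 that placed it -1.48 ± 0.10 from the median (adjusted p = 9.22e-05). Its relative glh-4 had 1886, 1766 and 1950 RPM in the IPs and a ratio of 8.93 ± 2.47, not called (0.18, adjusted p = 0.176). Paralogous genes can share reads, so values of closely related members are less certain than those of single genes.

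Germ granule genes as a group were nearly all listed. Of 20 such genes counted in the inputs, 16 were in the table, and these took 90.1% to 97.3% of the antisense input reads of the group. The unlisted ones were meg-1, meg-3 and meg-4, all on X, and pid-2, which had 65.7 antisense CPM in input 1 and was listed at 0 in inputs 2 and 3. The P granule scaffold gene pgl-1 had 1093, 1026 and 972 RPM in the IPs and was called above the median (1.11 ± 0.10, adjusted p = 0.000186), as was deps-1, for another P granule component (486, 458 and 487 RPM, 1.38 ± 0.11, adjusted p = 0.000118). The Z granule helicase gene znfx-1 had 1201, 1120 and 1090 RPM and pid-5 had 1102, 1087 and 921 RPM, and neither was called. The 2 called below were glh-1 and meg-2, which had only 6.65, 6.24 and 7.02 RPM. Of the 16 listed genes, 12.5% were called above and 12.5% below, beside 2.16% and 9.98% of all features.

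The sRNA machinery was itself a target of WAGO-4. Of 18 Argonaute genes counted, 11 were listed, with a median IP level of 359 RPM and a median ratio of 9.08 ± 1.03. The gene wago-4 itself (II, 12919551 to 12923377) had 1398, 1331 and 1176 RPM in the IPs and 89.2, 96.3 and 106 RPM in the inputs, and ppw-2, which encodes WAGO-3, had 1714, 1508 and 1094 RPM. csr-1 had 1026, 1039 and 1172 RPM, a ratio of 8.80 ± 1.17. None of these was called, and of the 11 only alg-2, a miRNA Argonaute gene, was. This is 9.09% of the listed Argonaute genes, beside 9.98% of all features called below. The gene alg-2 had 11.95, 11.96 and 11.72 RPM and lay -1.31 ± 0.19 from the median (adjusted p = 0.00129). The 7 unlisted genes were alg-1, alg-3, alg-4, nrde-3, sago-1, sago-2 and wago-10.

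Of 25 genes of 22G-RNA synthesis, 22 were listed and none was called in either direction, beside 2.16% above and 9.98% below over all features. The mutator helicase gene mut-14 had 818, 803 and 879 RPM and the RNA-dependent RNA polymerase gene ego-1 had 678, 636 and 467 RPM in the IPs. The helicase gene rde-12 had the lowest loading of the list, a ratio of 4.18 ± 0.352. The listed genes held only 56.4% to 59.9% of the antisense input reads of the group, since the unlisted rde-11 had 426, 471 and 401 antisense CPM in the inputs and the unlisted rrf-2 had 80.1, 97.9 and 109. The third unlisted gene, drh-3, was listed at 0 in all 3 inputs, so its absence says nothing of WAGO-4.

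**Figure D3:**
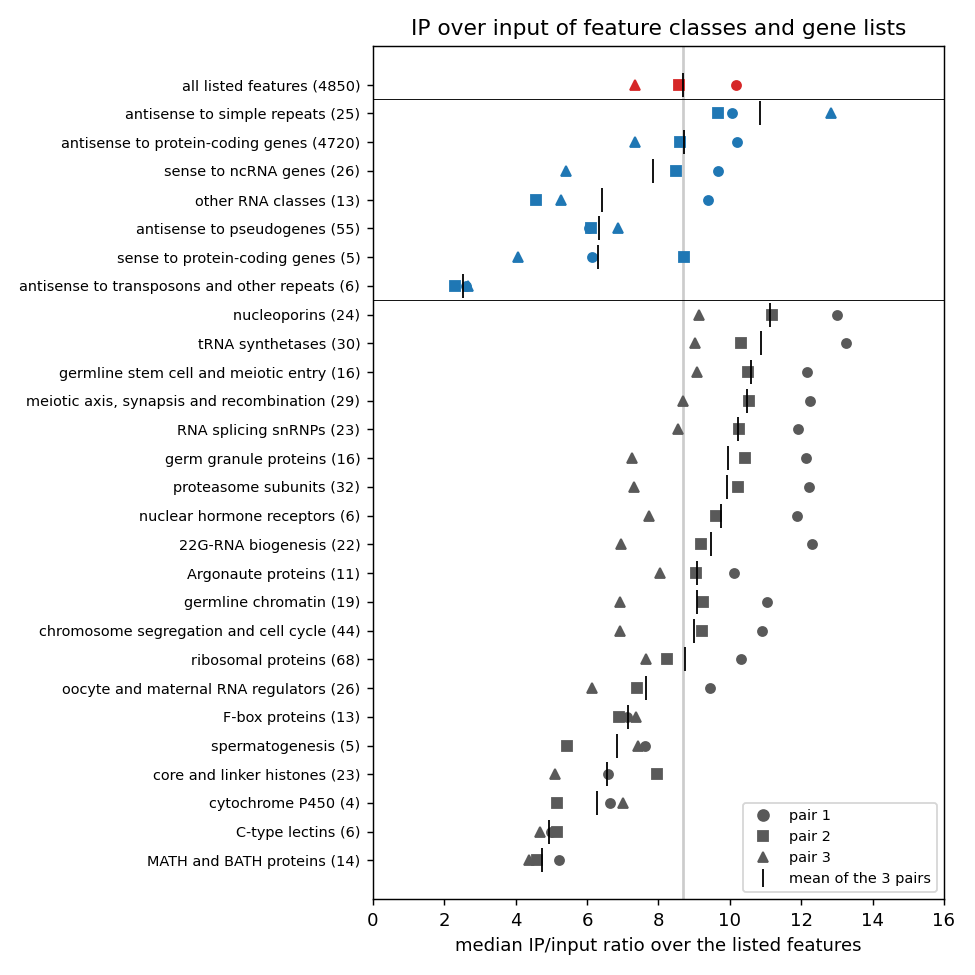
Median IP/input ratio over the listed features of each feature class (blue) and gene list (grey), with the number of listed features in brackets; each symbol is 1 of the 3 WT pairs, black bars are their means, and the grey line is the mean for all 4850 features, 8.69. Pair 3 gives the lowest median for most gene lists, and transposons and other repeats have a mean of 2.53, the lowest shown.

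Genes of oocyte production, meiosis and cell division were listed almost completely. The table held 44 of 45 genes of chromosome segregation and the cell cycle, 29 of 32 of the meiotic axis, synapsis and recombination, 26 of 28 of oocytes and maternal RNA regulation, 19 of 22 of germline chromatin and 16 of 20 of germline stem cells and meiotic entry. Called away from the median were 2 above (fbf-2 and set-32) and 5 below. Those above were 1 of the 16 stem cell genes (6.25%) and 1 of the 19 chromatin genes (5.26%), beside 2.16% of all features. Called below were 3 of the 26 oocyte genes (11.5%), 1 of the 29 meiotic genes (3.45%) and 1 of the 44 chromosome segregation genes (2.27%), beside 9.98%. The PUF repressor gene fbf-2 had 1215, 1194 and 1002 RPM in the IPs and 59.2, 76.3 and 76.6 RPM in the inputs. The histone methyltransferase gene set-32 had 371, 367 and 287 RPM in the IPs, and its difference of 1.01 was no longer called in 6 of 9 alternative analyses.

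Those below were puf-7, for an oocyte PUF protein (187, 199 and 144 RPM in the IPs, ratio 2.66 ± 0.102), syp-3, for a synaptonemal complex protein (ratio 3.93 ± 0.573), bir-1, for the survivin homologue of the chromosomal passenger complex (ratio 3.76 ± 1.52), the oocyte gene puf-6 (ratio 3.50 ± 0.555) and nos-2, for a Nanos protein made from maternal RNA (ratio 3.03 ± 0.862). Some unlisted genes of these groups could not be judged: cosa-1 was listed at 0 in all 3 inputs, and gld-1 had 19.5 antisense CPM in input 1 and was listed at 0 in the others. The unlisted mcm-2, in contrast, had 180, 247 and 178 antisense CPM. The kinetochore gene knl-1 had the highest loading of the chromosome segregation list (757, 821 and 738 RPM, ratio 15.8 ± 4.94), and was not called.

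Housekeeping genes that germ cells share with other tissues were listed as fully. The table held 32 of 33 proteasome subunit genes, 30 of 32 tRNA synthetase genes, 24 of 25 nucleoporin genes, 23 of 25 splicing genes and 68 of 78 ribosomal protein genes. The median ratio was 11.1 ± 1.93 for nucleoporins and 10.9 ± 2.17 for tRNA synthetases, against 8.69 ± 1.42 over all features (SD, n = 3 pairs), and their ranges over the 3 pairs overlapped that of all features. Of the 24 nucleoporin genes, 20 lay on the upper side of the median feature, where 50.4% of all features lay. Only npp-13 was called above (4.17%, beside 2.16% of all features). Ribosomal protein genes lay on both sides: 6 of 68 (8.82%, beside 2.16% of all features) were called above, among them rpl-20 and rpl-16, and 9 (13.2%, beside 9.98%) below, among them rps-19 (15.4, 16.3 and 13.8 RPM, ratio 2.93 ± 0.407) and rpl-23.

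Genes of sperm and of somatic tissues were mostly outside the table. None of 31 major sperm protein genes was listed, nor any of 156 cuticle collagen genes, 1251 chemoreceptor genes or 6 vitellogenin genes. The median collagen gene had only 0.0808 and the median chemoreceptor gene 0.0641 antisense CPM in the inputs. The median was 1.46 for major sperm protein genes and 5.71 for vitellogenin genes. At least 1 antisense CPM was reached by 17 of the 31 major sperm protein genes and 5 of the 6 vitellogenin genes, so little input is not common to all these families. Of 26 spermatogenesis genes, 5 were listed. The median of the 26 was 2.22 antisense CPM in the inputs. Some unlisted ones had far more, with 98.3, 106 and 65.9 CPM for spe-41 and 32.1, 24.2 and 27.6 CPM for fer-1. The highest of the 5 listed, spe-39, which is also used in other tissues for lysosomal sorting, had 86.2, 95.6 and 102 RPM. The gene spe-38, for a sperm membrane protein, had 9.33, 9.26 and 8.17 RPM. It was 1 of the 2 called below the median, which are 40% of the 5, beside 9.98% of all features.

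Marker genes of tissues were counted in the same way. Of the germline markers, 7 of 8 were listed, all but gld-1. Of 6 markers each, none of intestine, muscle or epidermis was listed, 1 of neurons (snb-1, at 70.2, 63.8 and 56.6 RPM) and 1 of sperm (spe-38). A mean of at least 1 antisense CPM in the inputs was reached by 2 of the intestine, 3 of the muscle, 4 of the neuron, 2 of the epidermis and 5 of the sperm markers, so the absence of the others rests on few reads.

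Large gene families that expanded in nematodes were listed sparsely. The table held 13 of 321 F-box genes, 14 of 74 MATH and BATH genes, 6 of 237 C-type lectin genes and 6 of 269 nuclear hormone receptor genes. Called below the median were 6 of the 14 MATH and BATH genes, 3 of the 6 lectins, 3 of the 13 F-box genes and 1 of the 6 nuclear hormone receptor genes, beside 9.98% of all features, and none was called above. The median ratio was 4.72 ± 0.430 for MATH and BATH genes, 4.94 ± 0.243 for lectins and 7.14 ± 0.242 for F-box genes. It was 9.75 ± 2.09 for nuclear hormone receptors and 8.69 ± 1.42 over all features (SD, n = 3 pairs). In pairs 1 to 3 the F-box median was 7.13, 6.90 and 7.38, against 10.2, 8.57 and 7.33 over all features. It was thus not lower in pair 3. The gene bath-36 had 19.9, 19.8 and 17.8 RPM in the IPs and 8.61, 7.89 and 8.91 RPM in the inputs, and nhr-47 had 101, 100 and 90.3 RPM in the IPs and 40.6, 41.9 and 36.5 RPM in the inputs. Both were close to the 2-fold minimum in every pair. bath-41 was abundant, with 462, 545 and 952 RPM, IP 3 being the highest.

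Of 72 histone genes, 23 were listed and these took only 8.81% to 12.8% of the antisense input reads of the family. The H3.3 gene his-74 had the strongest loading, and 9 of the 23 (39.1%) were called below the median, beside 9.98% of all features, among them his-57 (5.54, 6.09 and 5.09 RPM). These 9 genes gave only 5 distinct sets of values. At low levels the 1 RPM added weighs on the call. The genes his-45 and his-55, with a ratio of 5.42 ± 0.686 at 6.81 RPM, were called below. The germ granule gene glh-2, with a ratio of 4.63 ± 0.601 at 84.8 RPM, was not. Over the 23 histone genes the median ratio was 6.56 ± 1.44, against 8.69 ± 1.42 over all features (SD, n = 3 pairs). Values were identical in all 6 libraries for his-10, his-14 and his-26, for his-11, his-15 and his-44, for his-45 and his-55, and for his-46 and his-56 (equal to 6 digits), so reads of these genes were shared and cannot be assigned to 1 copy.

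The listed genes were unevenly spread over the chromosomes. Of the protein-coding genes counted, 42.6% were listed on chromosome III, 40.3% on I, 26.3% on IV, 26.1% on II and 13.9% on V, but 1.12% on X (30 of 2670). Of the X genes, 387 had at least 5 antisense CPM in the inputs, and 13 of them (3.36%) were listed, against 3679 of 5418 (67.9%) of such autosomal genes. The X chromosome is known to be largely silent in the C. elegans germ line.

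The 30 listed X genes also had low levels and weak loading. On X the listed genes had a median of 13.8 RPM in the IPs, against 86.8 RPM on the autosomes, with a median ratio of 4.00, 3.20 and 2.84 in pairs 1 to 3 against 10.2, 8.62 and 7.37. Called below the median were 23 of the 30, beside 9.98% of all features, and 1 was called above. In contrast, the 5 autosomes differed little from each other, with median ratios between 8.52 ± 1.46 on chromosome I and 8.99 ± 1.38 on V (SD, n = 3 pairs).

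**Figure D4:**
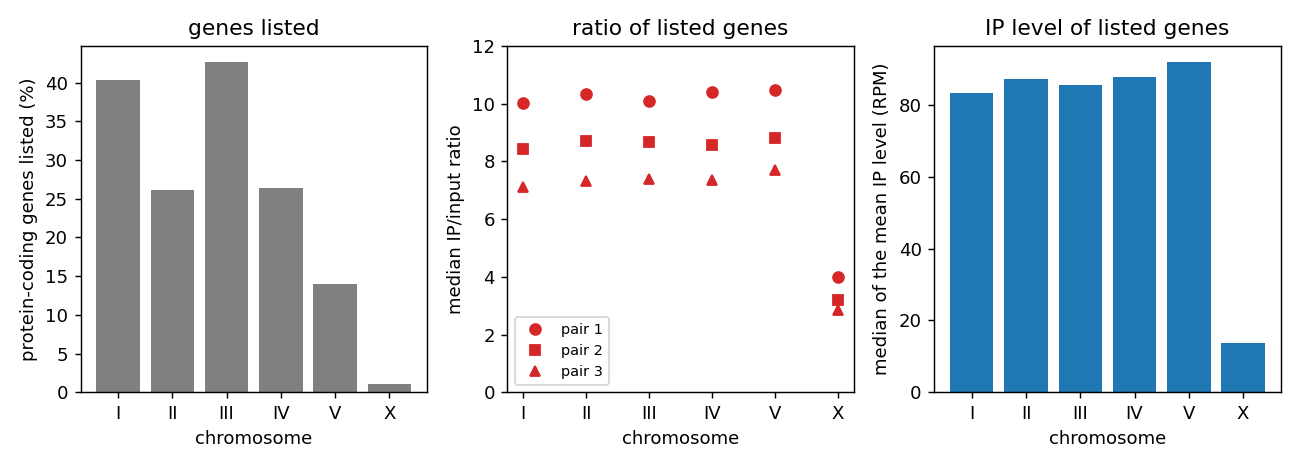
Share of counted protein-coding genes listed in the WT table (left, %), median IP/input ratio of the listed genes in each of the 3 WT pairs (middle) and median over listed genes of the mean IP level (right, RPM), by chromosome. Between 13.9% and 42.6% of genes are listed on the autosomes and 1.12% on X, where the 30 listed genes also have the lowest ratios in all 3 pairs.

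The exceptions on X lay together at its left end. The gene called above, Y73B3A.1 (X, 42632 to 46933, WBcel235), had a mean of 945 RPM in the IPs and a ratio of 15.8. Within the first 0.5 Mb of the chromosome, 7 of 51 genes were listed (13.7%), with a median ratio of 9.33 ± 0.306, and 1 was called below. Over the rest of X, 23 of 2619 genes were listed (0.878%), with a median ratio of 2.88 ± 0.236, and 22 of the 23 were called below. The exception was mrp-4, with 269 RPM in the IPs and a difference of -0.16 (adjusted p = 0.293, limma). The highest number in any of the other 35 windows of 0.5 Mb was 3. The 7 genes were Y73B3A.1, Y73B3A.4, tmed-12, T08D2.7, T08D2.8, set-28 and M02E1.3, and this window was chosen after their values were seen, so it is a description.

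Whether a gene was listed depended on its antisense level in the input, and not in one direction. Of genes with less than 1 antisense CPM in the inputs, 26 of 9926 were listed. The share was 76.0% of 1748 genes between 10 and 20 CPM, and was 73.0% between 20 and 50, 49.3% between 50 and 100 and 16.8% of 505 genes above 100. The 420 unlisted genes above 100 held 60.9% of the antisense protein-coding input, and the listed genes held 22.4%, 25.1% and 29.5% of it in inputs 1 to 3. Most antisense sRNA of the lysate was thus directed at genes outside the table. Among the listed genes the median ratio was 9.08 ± 1.44 between 10 and 20 CPM and 6.54 ± 0.481 above 100. The ratio itself has the input level as its denominator, and the input counts include sRNAs of all lengths.

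**Figure D5:**
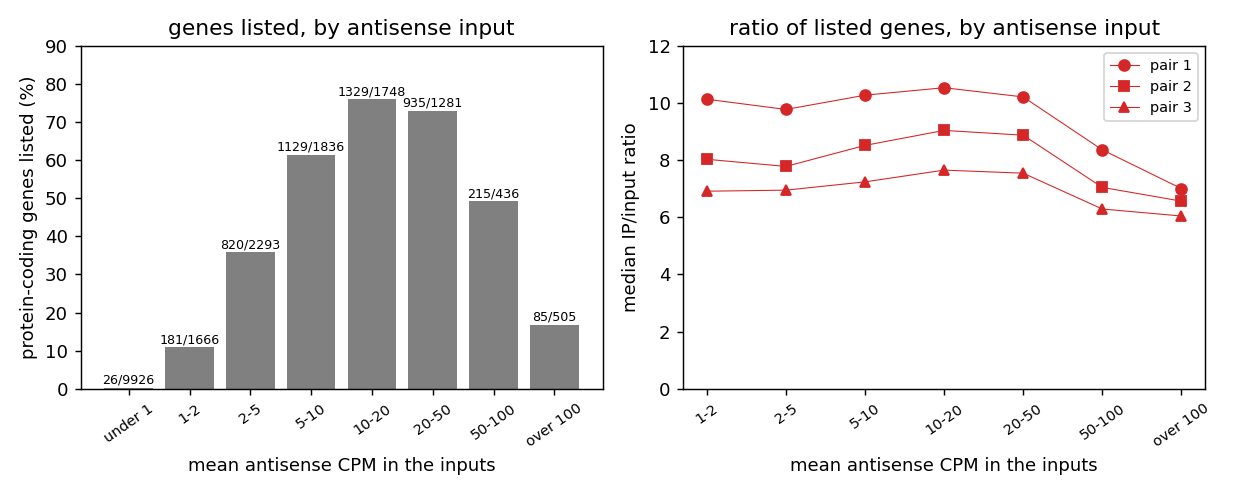
Share of protein-coding genes listed in the WT table (left, %, with listed and counted genes above each bar) and median IP/input ratio of the listed genes in each of the 3 WT pairs (right), by mean antisense CPM in the 3 WT inputs. The share is highest, 76.0%, between 10 and 20 CPM and is 16.8% above 100, where the ratios are also lowest in all 3 pairs.

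Listed genes were longer than unlisted ones, with a median of 1586 against 1093 exon bases. The share listed was 9.29% of genes of up to 500 exon bases and 43.9% of those over 4000. Per kb of exon the median IP level went the other way, from 72.5 RPM per kb in the shortest group to 41.6 in the longest. The 5 RPM minimum applies to the whole gene, so a short gene needs more reads per base to be listed.

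Repeats differed by kind. The 6 transposon and other repeat families, HelitronY1A_CE, HelitronY1_CE, PALTTTAAA1, PALTTTAAA2, CeRep5 and CELE4, were all called below the median. HelitronY1_CE had 2322, 2297 and 1839 RPM in the IPs and 687, 709 and 635 RPM in the inputs, and the lowest of the 6, CELE4, had a mean IP level of 49.7 RPM. No family reached a ratio of 3 in every pair, so all 6 were close to the minimum of the table.

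The 25 simple repeats were scarcer than the median feature, and 1 (4%, beside 2.16% of all features) was called above the median and 3 (12%, beside 9.98%) below. Their median IP level was 25.0 RPM and their median ratio was 10.1, 9.66 and 12.8 in pairs 1 to 3, against 10.2, 8.57 and 7.33 for all features. On the log2 scale with 1 RPM added, 7 of the 25 lay above the median feature and 18 below, and the sign of their median difference turned with a pseudocount of 0.1 RPM. After (AGCTCC)n the most abundant were (CTTTCT)n with 217 ± 67.7 RPM, (ATC)n with 108 ± 20.2 RPM and (CAT)n with 62.4 ± 4.67 RPM (SD, n = 3 IPs).

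The units are shown because a 22G-RNA starts with G and so is copied from a template with a C at that site. Of the 25 listed units, 24 held a C. The exception was (GATGAA)n, with 25.0 ± 3.18 RPM (SD, n = 3 IPs). Among the 70 unlisted simple repeats with at least 1 antisense CPM in the inputs, 54 held a C (77.1%), and 73.0% of all 1384 did. C made up 34.7% of the bases of the listed units and 22.6% of those of the 70. The listed units were counted by 22G-RNAs alone, while the 70 were picked by input reads of all lengths. Only 18 of the 25 listed repeats reached 1 antisense CPM in the inputs. The listed and unlisted repeats were thus picked by different reads. The part of this in the difference in C content was not tested, and nothing is read from that difference. The letters are those of the repeat's name, and the strand to which each name refers was taken as the sense strand of the feature.

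Of the 55 pseudogenes, 1 was called above the median and 19 below (34.5%, beside 9.98% of all features). Their median ratio was 6.06, 6.12 and 6.86 in pairs 1 to 3, against 10.2, 8.57 and 7.33 for all features, so the gap was smallest in pair 3. Y57G11C.57 was the most abundant, with 745, 874 and 793 RPM in the IPs and 218, 268 and 168 RPM in the inputs, and Y57A10A.1 followed with 657 ± 81.6 RPM and a ratio of 2.88 ± 0.354. In contrast, klp-10, annotated as a pseudogene, had 516, 508 and 528 RPM in the IPs and a ratio of 9.37 ± 1.84, near the median, and F18A11.6 had the second strongest loading of all features.

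Few features were read in sense, and most of these overlapped a gene on the other strand. All 26 noncoding RNA genes and all 5 protein-coding genes read in sense had an annotated gene on the opposite strand, and for 18 and 2 of them that gene was itself listed in antisense. T06D8.12, a noncoding RNA gene on chromosome II, had 171, 223 and 227 RPM in the IPs and lies opposite the proteasome gene rpn-9, which had 182 RPM. T05G5.17, opposite iff-1, had 104, 112 and 214 RPM and was called above the median, but not with input 3 for all 3 IPs nor without replicate 3. K07C10.3 had 110, 146 and 225 RPM, and its opposite gene K07C10.6 was not listed. A read in such a place is sense to one gene and antisense to the other, and whether the table counts it under both was not tested. Of the 5 protein-coding genes, tpra-1 was the highest with 70.2, 88.9 and 75.3 RPM, and bath-21 had 41.1, 50.9 and 17.8 RPM.

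Other RNA classes gave only scattered features. The 5S rRNA gene rrn-4.3, read in sense, had 70.0, 42.4 and 36.4 RPM in the IPs and 1.37, 0.843 and 6.26 RPM in the inputs, with ratios of 51.2, 50.3 and 5.81, and it was not called (adjusted p = 0.0580, limma). The lincRNA linc-9, in antisense, had 229, 241 and 116 RPM in the IPs and a ratio of 4.09 ± 0.882.

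WAGO-4 targets were divided by whether CSR-1 shares them. A list given with the study names 775 WT features whose targets are not shared with CSR-1, chosen on these same libraries together with published CSR-1 data, and all 775 were found in the table. Their median ratio was 6.17 ± 0.212, against 9.02 ± 1.63 for the other 4075 (SD, n = 3 pairs). In pairs 1 to 3 it was 6.21, 5.94 and 6.36, against 10.7, 8.89 and 7.45 for the others. The gap was thus smallest in pair 3, the only pair within 1 batch under the grouping above. The median IP level was 74.7 RPM for the 775 and 85.6 RPM for the others. The 775 made up 15.98% of all features, 49.6% of the 484 loaded below the median and 21.9% of the 105 above. Of the 775, 31.0% were called below and 2.97% above, against 5.99% and 2.01% of the others. Of the simple repeats 84.0% were in that list, of the pseudogenes 65.5%, and of the protein-coding genes 14.7%. None of the listed germ granule, Argonaute, meiotic axis, chromosome segregation, oocyte, chromatin or nucleoporin genes was in it. Other germline and housekeeping groups were in part, with 3 of the 16 stem cell and meiotic entry genes and 14 of the 68 ribosomal protein genes. It also held 1 of the 22 genes of 22G-RNA synthesis, 13 of the 23 histone genes and 7 of the 14 MATH and BATH genes.

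The order of loading was compared with that in the 3×FG libraries, which the WT table did not use. Of the 4850 features, 4080 (84.1%) were also in the 3×FG table. Over these, the correlation of the loading relative to the median was 0.56 (Pearson) and 0.55 (Spearman), and that of the log2 IP level was 0.88. The points share the transcripts but not the libraries. All 105 features loaded above the median in WT were listed in 3×FG, and 91 (86.7%) were on the upper side of its median as well. Of the 484 loaded below, 166 (34.3%) were listed there and 151 of these were on the lower side. To be listed in 3×FG a feature had to pass the same minimum of 5 RPM and 2-fold. Features far above that minimum in WT can pass it more easily than those near it, so nothing is read from the shares listed. Over all shared features 70% were on the same side.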

How the data were processed

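Small RNAs of 3 WT inputs and 3 WT WAGO-4 IPs were sequenced. The submitters' processing notes name cutadapt 1.15, STAR 2.6.0c and the builds ce11 and ce10, without their roles. The authors deposited RPM of 22G-RNAs per feature, with an offset of 0.01 RPM in place of 0, and read counts of all sRNAs in the inputs. The authors' columns of averages and ratios were not used. Only 69.6% to 81.7% of input values were whole reads (tolerance 0.02), so reads were not recovered and no count test was run. Values were tested as log2(RPM + 1) with limma 3.58.1 in R 4.3.3 over all 4850 features, with Benjamini-Hochberg adjustment, IP and input of 1 number forming a pair because the input was an aliquot of the lysate. The scripts were tested on simulated data. Replicates are numbered libraries, which the study calls biological. Coordinates and exon lengths came from Ensembl 115 (WBcel235). Input counts were scaled to CPM, and reads in no feature (4.95% to 6.14%) were left out of tests.

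The members and lists were chosen with earlier results of these data known. Genes were named if they were among the 10 highest by IP level, loading or level per kb (protein-coding genes), the 3 highest of each other class, the 3 highest and the extremes in loading of each gene list, the 5 abundant features of lowest loading, or wago-4, csr-1, glh-1 and znfx-1. Others named (the other repeats, the X genes of the left end, the identical histone copies, genes opposite a sense feature, set-29, F28D9.4, F55A11.13, ZK380.t2, noa-1, ekl-7, pam-1, pezo-1, nos-2 and puf-6) were chosen after their values were seen. The alternatives were another pseudocount, a filter on low inputs, input 3 for all IPs, another centring, each replicate left out and no replicate block.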

Additional observations from a re-analysis of the deposited data

How the results depend on the processing

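With no replicate block, 90 features lay above and 505 below the median, of which 90 of the 105 and 483 of the 484 were shared with the paired analysis, and 4849 were higher in IP. The deviations of IP and input of the same number from their group means correlated at 0.0282, 0.0860 and 0.0968, so the pairing rests on the shared lysate and not on these values. The count above the median was 209 with a pseudocount of 5 RPM and 90 to 135 under every other alternative. The count below was 463 to 544 with 1 replicate left out. With input 3 for all IPs, 62 of the 105 and 336 of the 484 calls were kept, and with a pseudocount of 0.1 RPM 76 and 378. In these comparisons 0 calls turned to the opposite direction. Among the named features, 52 changed their call under at least 1 alternative.

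Without the 10 most abundant features, the IP minus input share was 1.28 percentage points for protein-coding antisense and -0.76 for transposons and other repeats. For sense noncoding RNA it was -0.000542 to 0.0258 when 1 replicate was left out, and without replicate 3 it was -0.000542. With at least 50 RPM in each IP, 3052 features remained.

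Median log2((IP + pseudocount)/(input + pseudocount)), 2.93 over all features, depended on the pseudocount. At 5 RPM it was 2.49 for all features, 2.50 for protein-coding antisense, 1.87 for pseudogenes, 1.74 for simple repeats, 1.68 for other RNA classes, 1.32 for sense noncoding RNA and 1.26 for sense protein-coding genes. By list it was 2.46 for oocyte, 3.04 for stem cell, 2.99 for meiotic, 2.04 for spermatogenesis, 2.39 for ribosomal, 1.92 for histone, 1.98 for F-box, 1.88 for MATH and BATH, 1.36 for lectin, 2.76 for splicing, 2.78 for tRNA synthetase, 1.82 for cytochrome P450 and 2.72 for germline marker genes. At 0.1 RPM it was 2.64 for pseudogenes, 3.30 for simple repeats, 2.85 for sense noncoding RNA, 2.53 for sense protein-coding, 2.82 for F-box, 2.27 for lectin and 2.598 for cytochrome P450 genes. With input 3 for all IPs it was 2.61 for pseudogenes, 1.52 for transposons, 2.31 for sense protein-coding, 2.97 for Argonaute, 2.19 for histone, 2.80 for F-box and 2.601 for cytochrome P450 genes. With at least 1 RPM in each input it was 2.84 for simple repeats. The cause of these shifts was not tested. Input 1, with the fewest reads, limits the ratios of scarce features.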
